A study of Rangifer tarandus with 4 samples.

Results

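The genes described here are the glutathione peroxidases GPX1 to GPX4, the thioredoxin reductases TXNRD1 to TXNRD3 and the iodothyronine deiodinases DIO1 to DIO3, enzymes known for a selenocysteine in their catalytic centre. They were looked up by exact symbol in the gene annotation deposited with the series, which describes genes of cattle (Bos taurus) and, per its header, the genome assembly ARS-UCD1.2. Of the 10 symbols, 8 matched a gene, each of them exactly 1 gene, out of 21880 genes in all. GPX2 and DIO1 did not match and are not analysed here. The series itself comprises single-cell 3′ RNA libraries of peripheral blood mononuclear cells from wounded reindeer (Rangifer tarandus), sampled on day 3 after the wound. Venous blood came from the saphenous vein (the back group, 2 libraries) or from the distal antler velvet (the antler group, 2 libraries), with about 12000 cells loaded per library. Apart from the wounding, the labels name no genotype, treatment or age. The same pair of title codes occurs at both sites without saying what a code marks. Counts per cell were not analysed here, so depth, cell types and expression of these genes in blood are not given, and antler and back are not compared. Positions below are on the cattle assembly and count from 1. No nucleotide or protein sequence was read for these models.

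Selenocysteine is inserted at a UGA codon, which elsewhere ends translation. In animals the recoding depends on a hairpin in the 3′ untranslated region (UTR) of the same messenger RNA, the selenocysteine insertion sequence (SECIS) element, which is bound by SECISBP2 and works with the elongation factor EEFSEC. A gene model that shows this arrangement therefore needs a marked codon inside the coding sequence, a later stop codon and a 3′ UTR. Glutathione peroxidases reduce hydrogen peroxide and lipid peroxides with glutathione, thioredoxin reductases pass electrons from NADPH to thioredoxin, and deiodinases activate or inactivate thyroid hormone by removing iodine. Because libraries of this kind are read near the 3′ end of transcripts, the 3′ UTR of a model also bears on how reads can be assigned to a gene.

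Of the 8 matched genes, 7 carried a selenocysteine feature and 5 carried both that feature and a 3′ UTR. GPX1, GPX3, GPX4, TXNRD1 and DIO2 had the whole arrangement of marked codon, stop codon and 3′ UTR. TXNRD2 and DIO3 had the marked codon, but their models ended without a stop codon and without a 3′ UTR. TXNRD3 had a stop codon and neither a marked codon nor a 3′ UTR, so the annotation did not show this gene as a selenocysteine enzyme. Across the annotation, 12 of 21861 protein-coding genes had such a feature, or 0.0549%, and the matched genes made up 7 of these 12. Each of the 8 genes had a single transcript, as did 53.9% of named protein-coding genes.

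**Figure D1:**
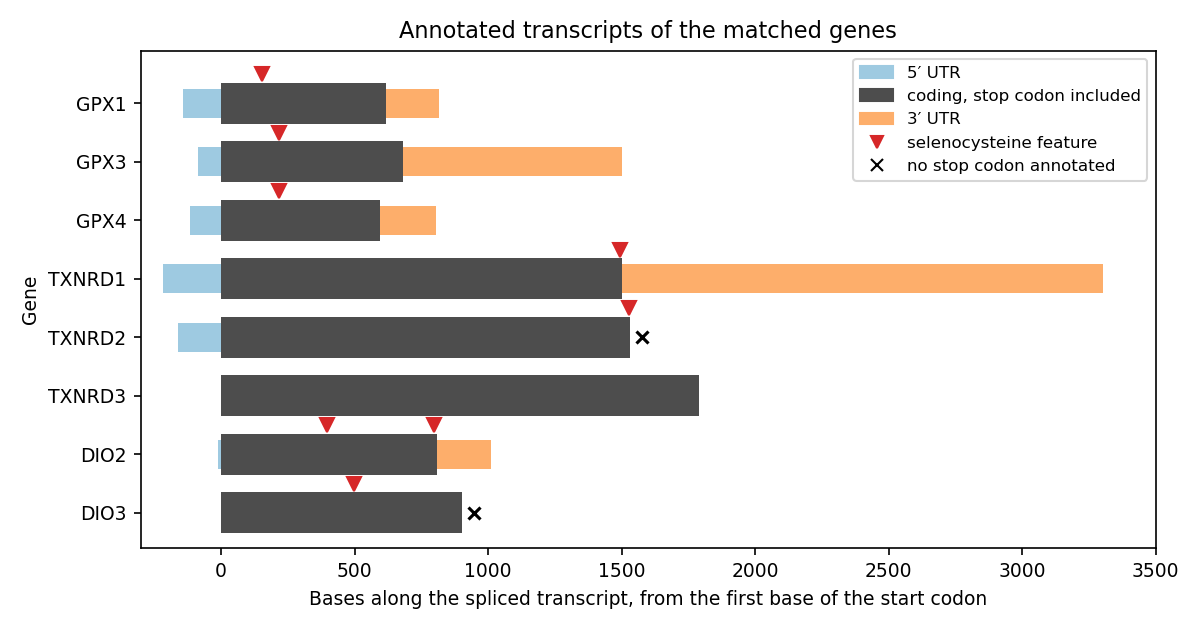
Spliced transcripts of the 8 matched genes, drawn to scale in bases from the first base of the start codon, with the 5′ UTR, the coding sequence and the 3′ UTR in different colours, a triangle at each selenocysteine feature and a cross where no stop codon is annotated. TXNRD1 has the longest 3′ UTR with 1802 bases, and TXNRD2, TXNRD3 and DIO3 end with their coding sequence.

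The annotation held 24 selenocysteine feature lines on 12 transcripts, and the members had 8 of them, because DIO2 had 2. All 24 lines were 3 bases long and began at the first base of a codon in the reading frame. The same 12 transcripts, and no others, carried the tag for selenoproteins. Of the 8 member lines, 5 lay in the last exon of the transcript, beside 18 of all 24 lines. SELENOP alone had 12 of the 24, and the line of DIO3, whose model has a single exon, could lie nowhere else. The lines of GPX1, GPX3 and GPX4 lay in an earlier exon. The peroxidases had the codon in the first part of the coding sequence (25.4% to 37.1% of the codons), both deiodinases had a codon near the middle (49.4% and 55.5%), the second codon of DIO2 lay at 98.9%, and TXNRD1 and TXNRD2 had it next to the last codon (99.8% in each).

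**Figure D2:**
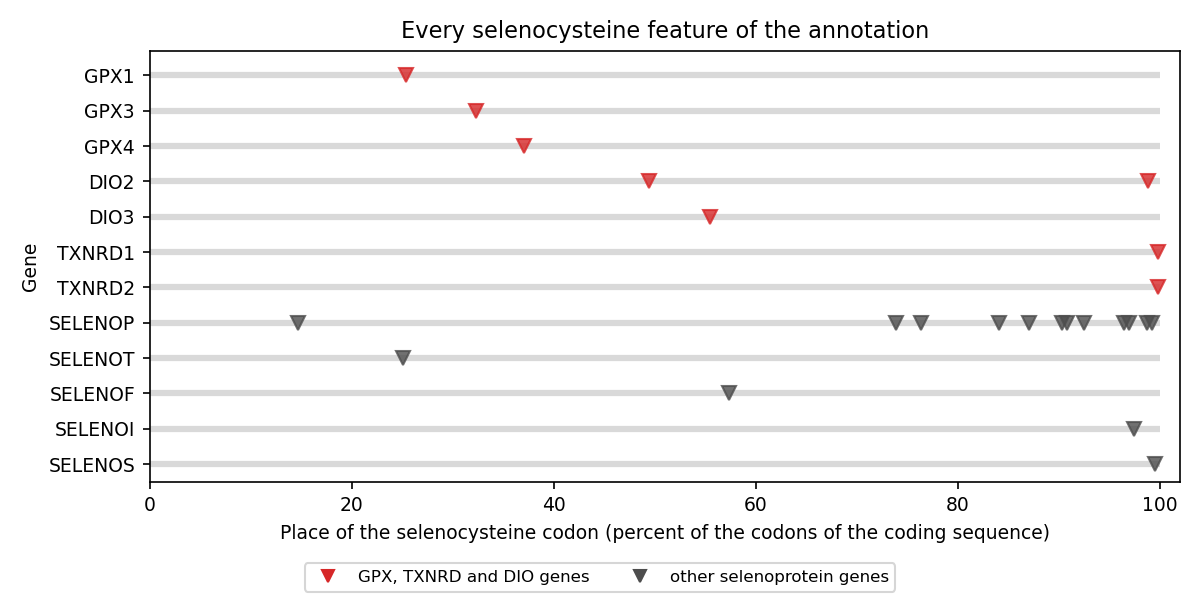
Place of each of the 24 selenocysteine features as a percent of the codons of its coding sequence, 1 line per gene, with GPX, TXNRD and DIO genes in red and the other 5 genes in grey. Peroxidase codons lie between 25.4% and 37.1%, and the reductase codons at 99.8%.

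GPX1, the peroxidase of the cytosol, had the shortest genomic span and the fewest exons of the 3 matched peroxidases, while the spliced transcript of GPX4 was shorter (921 against 960 bases). The gene (ENSBTAG00000054195) spanned 50752499 to 50753719 on chromosome 22, plus strand, and had 2 exons. Its selenocysteine codon, at 50752795 to 50752797, was codon 52 of 205 and stood in exon 1. It was followed by 105 bases up to the only exon junction and by 459 coding bases up to the stop codon. The 5′ UTR measured 143 bases and the 3′ UTR 199 bases, which was 20.7% of a transcript of 960 bases.

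GPX3, the secreted peroxidase of plasma, had the longest 3′ UTR of the 3 matched selenocysteine peroxidases. The gene (ENSBTAG00000043553) spanned 62284773 to 62292964 on chromosome 7, plus strand, with 5 exons. Its marked codon, at 62289601 to 62289603, was codon 73 of 226 and stood in exon 2, where 22 bases separated it from the end of the exon. As in GPX1, 153 codons followed the selenocysteine codon. The 3′ UTR of 820 bases made up 51.7% of the 1587 bases of the transcript.

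GPX4 reduces lipid peroxides within membranes and is known as the enzyme that holds back ferroptosis, a form of cell death driven by lipid peroxidation. The gene (ENSBTAG00000053003) spanned 43588660 to 43591106 on the same chromosome and strand and had 7 exons within 2447 bases. Its marked codon, at 43590059 to 43590061, was codon 73 of 197, the same number as in GPX3, and stood in exon 3. The stretch from the codon to the end of its exon was 105 bases, equal to that in GPX1. After the codon came 124 codons, fewer than the 153 of GPX1 and GPX3. The 3′ UTR measured 211 bases and the 5′ UTR 116 bases.

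The exons of the peroxidases were then compared by the length of their coding parts, a comparison chosen after the models had been seen. GPX3 had coding exons of 87, 154, 118, 100 and 222 bases, the last with its stop codon. GPX1, with 261 and 357 bases, and GPX4 had no coding exon length in common with GPX3 or with each other. A cysteine-type relative did. The symbol GPX5, a peroxidase of the epididymis that carries cysteine in place of selenocysteine, matched 2 genes. The GPX5 gene on chromosome 1 (ENSBTAG00000012023, 157996922 to 158004891, minus strand) had exons of 154, 118 and 100 bases in the same order as GPX3. The GPX5 gene on chromosome 23 (ENSBTAG00000050752, 30236196 to 30245150, minus strand) had the exon of 154 bases, followed by exons of 47, 71 and 100 bases. In GPX3 the selenocysteine codon began at base 130 of its exon of 154 bases. The same base of that exon began codon 59 of the GPX5 gene on chromosome 1 and codon 71 of the one on chromosome 23, both in frame and neither marked. The model on chromosome 1 has no start codon, so its codons are counted from the first annotated one. GPX7 and GPX8, peroxidases of the endoplasmic reticulum, shared the lengths of their last 2 coding exons (262 and 164 bases) with each other and none with GPX1, GPX3 or GPX4. Neither had a marked codon.

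**Figure D3:**
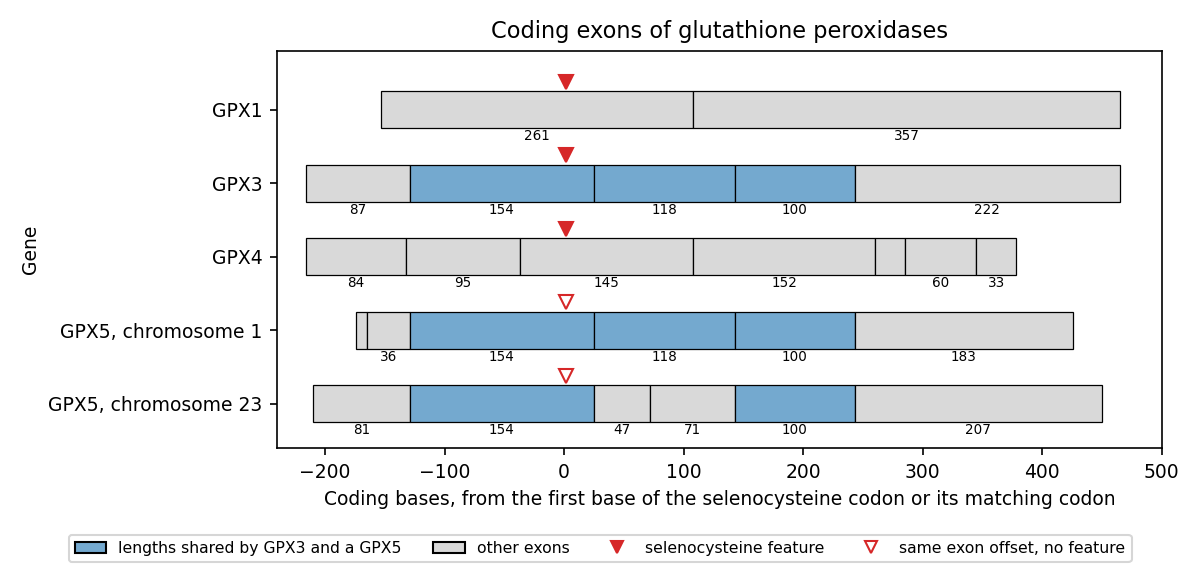
Coding exons of GPX1, GPX3, GPX4 and the 2 GPX5 genes, drawn in coding bases with the first base of the selenocysteine codon, or of the codon at the same exon offset in GPX5, at 0. Numbers give coding bases per exon (exons under 30 bases are not numbered), and blue marks lengths found in both GPX3 and a GPX5 gene, such as the exon of 154 bases that holds the codon in GPX3.

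TXNRD1, the cytosolic thioredoxin reductase, had the longest transcript of the matched genes. The gene (ENSBTAG00000013912) spanned 67898938 to 67961973 on chromosome 5, plus strand, with 15 exons, of which 13 were coding. Its marked codon, at 67960163 to 67960165, was codon 498 of 499, so that 1 codon stood between it and the stop codon. It lay in the last exon, which also held the whole 3′ UTR of 1802 bases. From the codon to the end of the transcript there were 1808 bases.

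TXNRD2, the mitochondrial reductase, had the same tail of codons in a model that went no further. Its gene (ENSBTAG00000043581) spanned 72873707 to 72900850 on chromosome 17, minus strand, and had 17 exons, all coding. Its marked codon, at 72873710 to 72873712, was codon 510 of 511, and the model ended 3 bases after it, with neither a stop codon nor a 3′ UTR. Named protein-coding genes without a stop codon in any transcript were rare, 41 of 16808 or 0.244%. A single transcript with neither a stop codon nor a 3′ UTR, as in TXNRD2 and DIO3, occurred in 26 of them, or 0.155%. Untranslated sequence was annotated at the 5′ end, in a 5′ UTR of 160 bases.

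TXNRD3, also called thioredoxin-glutathione reductase because a glutaredoxin domain precedes the reductase part, is known chiefly from the testis. Its gene (ENSBTAG00000011795) spanned 60417817 to 60442172 on chromosome 22, plus strand. Its model had 16 exons, 596 codons, a start codon and a stop codon, and no base of 5′ or 3′ UTR. A 5′ UTR was lacking in 2 of the 8 matched genes, TXNRD3 and DIO3, beside 19.4% of named protein-coding genes, and neither UTR was found in the same 2, beside 12.7%. No selenocysteine feature stood on it.

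The coding exons of TXNRD1 and TXNRD3, compared after the models had been seen, were equal in length over a run of 11. Coding exons 2 to 12 of TXNRD1 and 5 to 15 of TXNRD3 measured 73, 120, 143, 116, 226, 93, 77, 157, 108, 96 and 135 bases in both, or 1344 bases in all. Of the 21860 protein-coding genes other than TXNRD1, TXNRD3 was the only one with a run of more than 2 such lengths, and 78 genes had a run of 2. TXNRD2 shared at most 1 consecutive length with TXNRD1. After the run, each gene had 1 more coding exon, and here the models parted. In TXNRD1 the selenocysteine codon began at base 61 of that exon and the stop codon at base 67. In TXNRD3 the annotated stop codon began at base 61, at 60442170 to 60442172. The place that holds selenocysteine codon 498 in TXNRD1 thus held the stop, codon 597, in TXNRD3, in the same frame. The letters of that codon were not read, and whether it is a UGA was not tested.

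**Figure D4:**
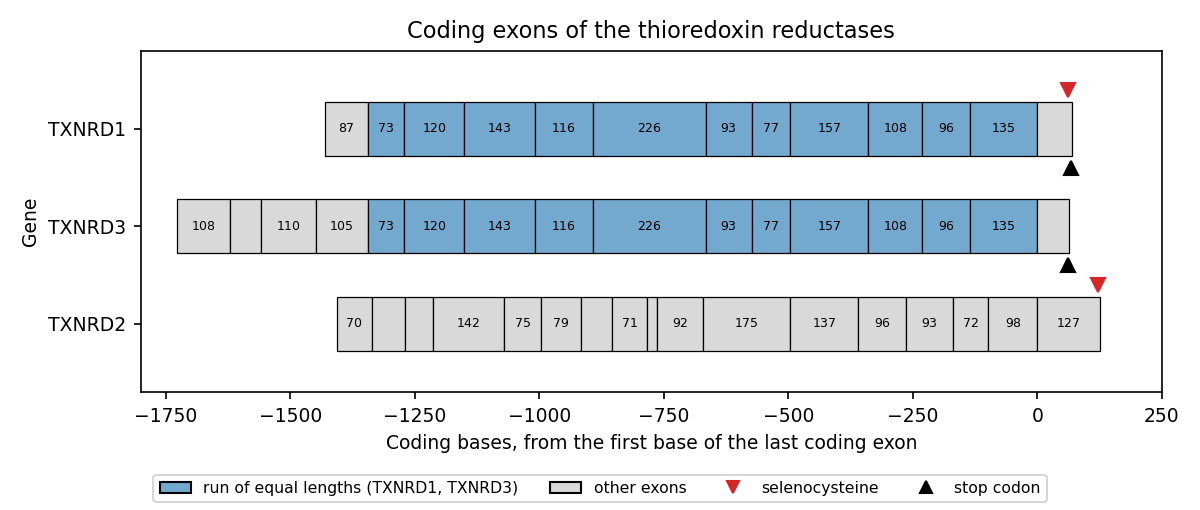
Coding exons of TXNRD1, TXNRD3 and TXNRD2 in coding bases, aligned at the first base of the last coding exon, with coding bases printed for exons of at least 70 bases. Blue marks the run of 11 equal lengths in TXNRD1 and TXNRD3, and the stop codon of TXNRD3 stands at base 61 of the last coding exon, where TXNRD1 has its selenocysteine codon.

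DIO2, the deiodinase that makes active thyroid hormone within cells, was the member with 2 marked codons. Its gene (ENSBTAG00000001605) spanned 91495432 to 91504569 on chromosome 10, minus strand, and had 2 exons. The first marked codon, at 91496045 to 91496047, was codon 133 of 269, and the second, at 91495646 to 91495648, was codon 266. Both stood in the last exon, and 3 codons lay between the second one and the stop codon. The 5′ UTR measured 10 bases and the 3′ UTR 202 bases, so that 214 bases of transcript followed the second codon.

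DIO3 inactivates thyroid hormone. Its gene (ENSBTAG00000043578) was a single exon on chromosome 21, 66494536 to 66495438, plus strand, made up wholly of 301 coding codons. Genes with 1-exon transcripts only were 4.38% of named protein-coding genes. The marked codon, at 66495034 to 66495036, was codon 167, and 134 codons followed it, against 136 after the first marked codon of DIO2. The model had a start codon but no stop codon and no UTR at either end, so the number of codons after the marked one is that of the model as annotated.

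A 3′ UTR of at least 1 base was annotated in 5 of 8 matched genes, beside 79.8% of 16808 named protein-coding genes and 75.7% of the 9059 of them with 1 transcript. The count was the same at a minimum of 50 or 100 bases, which 77.7% and 74.2% of named genes reached, and was 4 of 8 at 200 bases, beside 66.2%. The 3′ UTRs of GPX1, DIO2, GPX4, GPX3 and TXNRD1 measured 199, 202, 211, 820 and 1802 bases. Their median was 211 bases, beside 649 bases in the 13409 named genes that had one (quartiles 285 and 1173 bases). The 3 shortest lay within 12 bases of each other and were longer than 16.9% to 18.0% of those 3′ UTRs. That of GPX3 was longer than 58.7% of them and that of TXNRD1 than 87.8%. Each of the 5 was a single unbroken segment, and the share of named genes with this trait was not counted. Whether these stretches hold the SECIS element was not tested, and for TXNRD2, TXNRD3 and DIO3 the annotation gives no stretch in which to look. With 8 genes, no difference between the members and other genes is claimed.

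**Figure D5:**
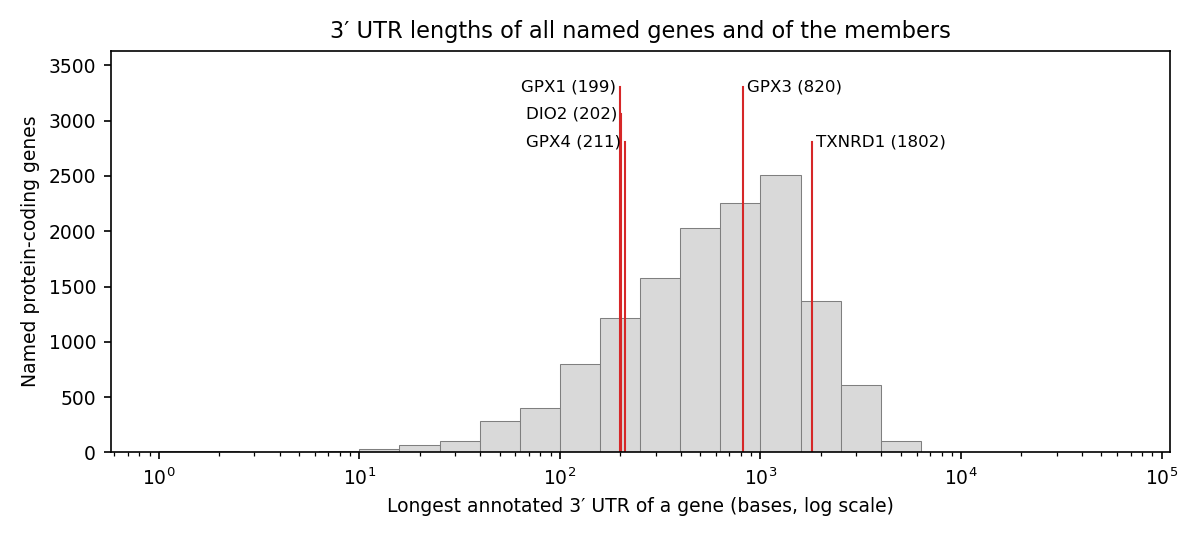
Longest 3′ UTR per gene in bases on a log scale for the 13409 named protein-coding genes that have one (grey bars, number of genes), with red lines at the 5 matched genes that have one. GPX1, DIO2 and GPX4 lie together at 199 to 211 bases, GPX3 at 820 bases and TXNRD1 at 1802 bases.

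Past their 3′ ends, all 8 matched genes had free space before the next annotated gene on either strand, with or without a 3′ UTR. Among those without one, the distance was 5719 bases for TXNRD3 (to C22H3orf22), 7558 bases for TXNRD2 (to GNB1L) and 183117 bases for DIO3 (to PPP2R5C). Among those with one, it was 8905 bases for GPX1, 82473 bases for TXNRD1 and 395501 bases for DIO2. The same distance over named genes is not given here. The closest neighbours were those of GPX3 and GPX4. TNIP1 on the other strand lay 545 bases past GPX3, and SBNO2 on the other strand lay 1024 bases past GPX4. No matched gene shared an exon base with another gene on its own strand, beside 1.81% of named genes. With both strands counted, 1 of the 8 shared exon bases, beside 9.16% of named genes.

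Selenoprotein genes outside these families were marked in part. Of 14 listed symbols, 11 matched, and 5 of those 11 had a selenocysteine feature. SELENOP, the plasma carrier that delivers selenium to tissues, had 12 marked codons from codon 59 to codon 399 of 402. SELENOF, SELENOI, SELENOS and SELENOT had 1 each, at codons 93, 387, 189 and 49. The other 6 (SELENOK, SELENOM, SELENON, SELENOO, SELENOV and MSRB1, a methionine sulfoxide reductase) had a start codon and a stop codon but no marked codon, as TXNRD3 did. All 5 marked genes outside the families had a 3′ UTR, from 203 bases in SELENOI to 2575 bases in SELENOT. Over the whole list 10 of 11 had a 3′ UTR. Both counts stand beside 79.8% of named genes. The longest was in SELENON (2824 bases), and SELENOM had none. SELENOH, SELENOW and SEPHS2 did not match.

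A further list held 17 symbols tied to selenocysteine synthesis and insertion or to the handling of selenium and selenoproteins. Of these 17 symbols, 16 matched, SEPHS2 being the exception. A 3′ UTR was annotated in 15 of these 16, beside 79.8% of named genes, and measured 637 bases in the median, beside 649 bases. SECISBP2, which binds the SECIS element, had 135 bases, and EEFSEC had 206 bases. In SECISBP2 the 135 bases came from a transcript other than that with the longest coding sequence, which had no 3′ UTR. The kinase gene PSTK, whose product acts on the transfer RNA before selenium is added, had the shortest with 71 bases, and the export receptor XPO1 the longest with 1798 bases. LRP2, a receptor for SELENOP in the kidney, had none. None of these genes had a marked codon.

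All 17 genes of the glutathione and thioredoxin systems matched and had a 3′ UTR, beside 79.8% of named genes, and its median was 480 bases, beside 649 bases. The shortest belonged to the peroxiredoxin PRDX4 with 111 bases and the longest to TXNIP, which binds thioredoxin, with 1434 bases. GSR, the glutathione reductase that uses no selenium, had 790 bases. All 11 thyroid hormone genes matched, and the 3′ UTRs of the 8 that had one measured 652 bases in the median, beside 79.8% and 649 bases in named genes. The shortest was that of TG, the thyroglobulin gene, with 87 bases. The transporters SLC16A10 and SLCO1C1 were among those without one. Of the 4 further peroxidase symbols GPX5, GPX6, GPX7 and GPX8, 3 matched, with 4 genes. A 3′ UTR was annotated in 3 of these 4 genes, beside 79.8% of named genes. It measured from 431 bases in GPX8 to 961 bases in the GPX5 gene on chromosome 23. The GPX5 gene on chromosome 1 had none, and GPX6 did not match.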

How the data were processed

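The series holds 4 libraries, grouped by the source in the labels. Saphenous vein is the back group and distal antler velvet the antler group. The submitters' processing notes name STAR, Cell Ranger 3 and Seurat, without their roles. The deposited file used was 1 gene annotation with 1020224 feature lines, which gives the first and last base of every feature and no value of any sample. Per the file headers its assembly is ARS-UCD1.2. The sources used here do not say how the authors set reindeer reads against it. From it were computed codon places, coding lengths, UTR lengths (the longest summed 3′ UTR over a gene's transcripts, without the stop codon), shared exon bases and distances between genes, with Python 3.11.15, NumPy 2.4.6 and matplotlib 3.10.9. A gene was named if its symbol was not an identifier. The reader was tested on a simulated annotation. The rule for naming genes took all members, every gene with a selenocysteine feature and, per list, genes not matched, without a 3′ UTR, or with the longest or shortest one. SECISBP2, EEFSEC, GSR and the genes next to members were added once their values had been seen. GPX7, SELENOK, SELENOO, SELENOV and MSRB1 were also named outside this rule. A few genes under this rule are not reported here. Members and lists were chosen with earlier results of these data known. Gene models are not replicates, so no test was made.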

Additional observations from a re-analysis of the deposited data

How the results depend on the processing

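Each matched gene had a single transcript, so restricting each gene to its transcript of longest coding sequence left the counts of members with the feature (7) and with a 3′ UTR (5) and the median 3′ UTR as they were. Restricting the reading to transcripts with a selenocysteine feature, which drops TXNRD3, left the 5 members with a 3′ UTR and their median as they were. Matching symbols without regard to case gave the same 7 genes with the feature. With at least 50 or 100 bases required, 5 members still had a 3′ UTR, and with at least 200 bases 4 did, because GPX1 had 199. The background share moved from 79.8% to 77.7%, 74.2% and 66.2% at these minimums and to 65.5% over all protein-coding genes. Counting the 3 genes without a 3′ UTR as 0 bases moved the median from 211 to 200.5 bases. Counting either strand moved the number of members with shared exon bases from 0 to 1, beside 9.16% of named genes. The median of coding bases after the selenocysteine codon was 402, and 372 when the second codon of DIO2 was taken. TXNRD2 and DIO3 enter this median with models that lack a stop codon. A lookup through synonyms and a reading of codons or protein residues were not run, since no table or sequence for them was used here. No paired analysis was possible because no result came from a test between samples. Depth does not limit values read from gene models.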

Other observations

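SELENON, known for its role in muscle and calcium handling, had a model unlike those of the enzymes. The gene (ENSBTAG00000021778) spanned 127256063 to 127272993 on chromosome 2, minus strand, with 11 exons, yet its coding sequence had 66 codons. Its 5′ UTR measured 1298 bases in 10 segments and its 3′ UTR 2824 bases. A transcript with a 5′ UTR of at least 10 segments occurred in 6 of 16808 named protein-coding genes, or 0.0357%. This gene was singled out after its values were seen, and no explanation was tested.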
